A study of Rattus norvegicus with 24 samples.

Results

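Of the 26404 Ensembl gene IDs counted in rat liver, 73 were near-silent in vehicle-treated rats and on in every rat given 10 µg/kg TCDD. They were chosen as IDs with a vehicle mean below 1 CPM (counts divided by the library's sum of gene counts, times 1000000) and at least 3 CPM in each of the 3 libraries at 10 µg/kg. In all, 75 IDs met both conditions, and the rule left out 2 of them. The 73 genes, called members here, were 0.478% of the 15260 IDs with a vehicle mean below 1 CPM and 0.787% of the 9280 IDs with at least 3 CPM in each library at 10 µg/kg. The tables used here did not pair the IDs with gene names, so members carry no symbol or role, and none was matched to a promoter sequence. At most 2 IDs are printed, and the other members are identified by their rank by mean CPM at 10 µg/kg, with rank 1 the highest. A CPM is a share of a library's reads, not corrected for gene length, so the rank only identifies a gene.

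Each library came from the liver of a female rat of the outbred Sprague-Dawley stock, labelled as 57 days of age. The rats received sesame oil vehicle alone or TCDD at 1 of 7 doses (0.01 µg/kg, 0.03 µg/kg, 0.1 µg/kg, 0.3 µg/kg, 1 µg/kg, 3 µg/kg and 10 µg/kg) by gavage at intervals of 4 days, with the livers taken at 28 days. Each of the 8 groups held 3 libraries, described by the series as biological replicates, and gene counts ranged from 11816273 to 15804887 per library. A minimum of 3 counts, taken as the detection floor, corresponded to 0.190 to 0.254 CPM. Liver and blood cell marker lists could not be applied to unnamed IDs, so the labelled tissue was not checked. In whole liver, more RNA per cell and more cells of a type cannot be told apart.

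TCDD (2,3,7,8-tetrachlorodibenzo-p-dioxin) is a persistent ligand of the aryl hydrocarbon receptor, a transcription factor held in the cytoplasm until a ligand binds. The bound receptor enters the nucleus, pairs with the protein ARNT and binds short DNA elements near its target genes. In liver, its best known targets are enzymes that oxidise and conjugate foreign compounds, several of which are barely transcribed without a ligand. The comparison asks from which dose the members came on, and whether they did so together. Without names, no member is identified here as a target of the receptor.

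The vehicle and 10 µg/kg values chose the members and are given as a description only. Member means at 10 µg/kg ran from 3.24 to 186 CPM with a median of 8.75 CPM, and vehicle means from 0 to 0.998 CPM with a median of 0.556 CPM. At 10 µg/kg, 30 members averaged at least 10 CPM and 6 at least 50 CPM, while 18 averaged under 5 CPM. In vehicle, 59 members had over 3 counts in the 3 libraries together, 12 had 1 to 3 counts and 2 had none. Among those 59, the mean at 10 µg/kg was 3.45 to 1423 times the vehicle mean, with a median of 13.5; the highest ratio, of the member ranked 2, rests on 4 vehicle counts. The members without a vehicle count were those ranked 7 and 51. Their means at 10 µg/kg were 550.3-fold and 73.2-fold the floor of 3 counts over the vehicle group, 0.0781 CPM, so these are minimum ratios to vehicle. The mean of the member ranked 7 rests on replicate 3, with 12.6, 3.99 and 112 CPM in the 3 libraries.

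Some members lay close to a threshold of the rule. The 3 members with the highest vehicle means stood at 0.998, 0.997 and 0.982 CPM, and the 3 IDs just outside at 1.0046, 1.0048 and 1.0087 CPM. The lowest library at 10 µg/kg held 3.03, 3.05 and 3.10 CPM for the 3 members nearest that threshold, against 2.97, 2.97 and 2.97 CPM for the 3 nearest IDs outside it.

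Together the members formed a small share of liver mRNA that was larger at the higher doses. Their summed level averaged 37.4 ± 3.97 CPM in vehicle, 58.7 ± 9.64 CPM at 0.01 µg/kg, 69.1 ± 2.41 CPM at 0.03 µg/kg and 95.6 ± 18.1 CPM at 0.1 µg/kg (SD, n = 3 each). It averaged 107 ± 20.7 CPM at 0.3 µg/kg, 246 ± 74.6 CPM at 1 µg/kg, 560 ± 38.1 CPM at 3 µg/kg and 1380 ± 81.4 CPM at 10 µg/kg. The 3 libraries at each of 1 and 3 µg/kg lay above all libraries of each lower TCDD dose. The rule set vehicle low and 10 µg/kg high, so nothing is read from where those 2 groups lay. At 1 µg/kg the libraries were spread widely, with 164 CPM in replicate 1 and 310 and 263 CPM in replicates 2 and 3. A few genes carried much of the sum: the member ranked 1 held 32.1% of it at 3 µg/kg and 13.5% at 10 µg/kg. Without that gene the sum was 166 ± 47.8 CPM at 1 µg/kg, 380 ± 46.5 CPM at 3 µg/kg and 1195 ± 119 CPM at 10 µg/kg.

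**Figure D1:**
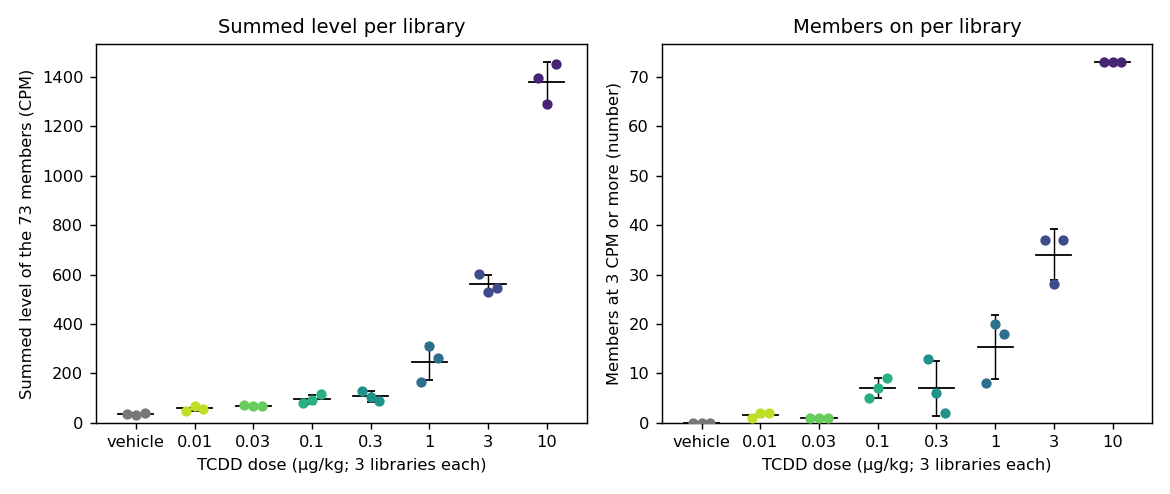
Summed level of the 73 members in CPM (left) and number of members at 3 CPM or more (right) in each library, by dose in µg/kg. Points are libraries, lines the group mean and bars the SD (n = 3); the sum averaged 560 CPM at 3 µg/kg and 1380 CPM at 10 µg/kg, where all 73 members were on by the rule.

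For most members the onset, as defined here, was at 10 µg/kg, where the rule put all of them on. A member was taken as on at a dose when all 3 libraries held at least 3 CPM, and its onset was the lowest dose from which this held at every higher dose. By this measure 1 member had its onset at 0.3 µg/kg, 4 had theirs at 1 µg/kg, 16 members followed at 3 µg/kg and the other 52 at 10 µg/kg. Of these 52, the members ranked 40 and 67 had also been on at 0.1 µg/kg, but not at every dose above it. Of the IDs with a vehicle mean below 1 CPM, 21 members and 1 other ID, besides the 2 left out, held 3 CPM in every library at 3 µg/kg. At that dose 35 members averaged at least 3 CPM and 49 reached it in any library, so the onset depends on the cut. The median over members of the group mean was 0.719 CPM at 0.01 µg/kg, 0.837 CPM at 0.03 µg/kg, 1.11 CPM at 0.1 µg/kg and 1.23 CPM at 0.3 µg/kg. It was 1.57 CPM at 1 µg/kg and 2.90 CPM at 3 µg/kg. An onset at 10 µg/kg did not mean silence before it: the median mean of those 52 members was 0.587 CPM in vehicle, 1.21 CPM at 1 µg/kg, 2.49 CPM at 3 µg/kg and 6.62 CPM at 10 µg/kg. The 16 members with onset at 3 µg/kg had a median mean of 0.578 CPM in vehicle, 2.62 CPM at 1 µg/kg, 7.19 CPM at 3 µg/kg and 11.6 CPM at 10 µg/kg.

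**Figure D2:**
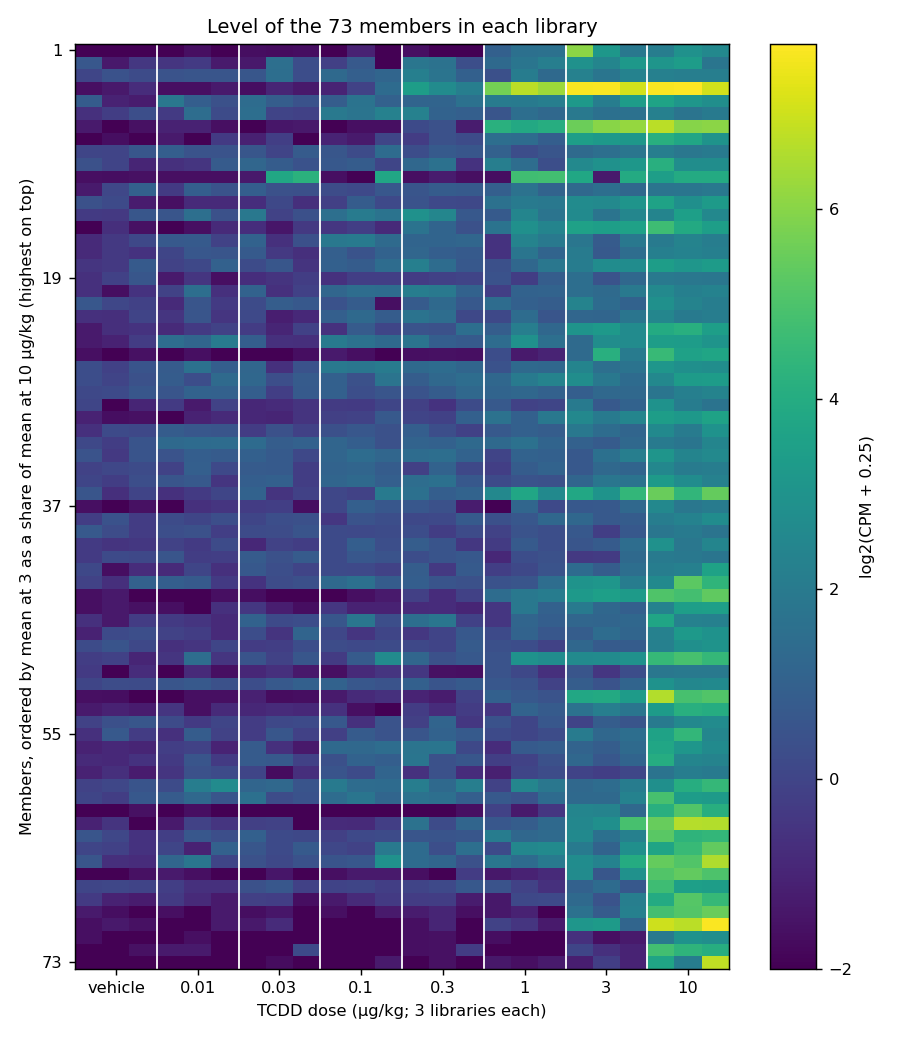
Level of each of the 73 members (rows) in each of the 24 libraries (columns, grouped by dose in µg/kg), as log2(CPM + 0.25). Rows run from members with the highest mean at 3 µg/kg relative to 10 µg/kg (top) to the lowest (bottom). The bottom rows stay dark up to 1 µg/kg, and each is brightest in the 3 rightmost columns.

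Among the 4 members with onset at 1 µg/kg, ranked 4, 8, 19 and 34, the member ranked 19 held 26.3, 15.1 and 10.9 CPM at 10 µg/kg. Below that dose it held 11.5, 10.9 and 11.8 CPM at 3 µg/kg, 3.04, 7.10 and 5.08 CPM at 1 µg/kg and 3.04, 1.95 and 1.09 CPM at 0.3 µg/kg. The groups at 10 and 3 µg/kg overlapped, and the lowest library at 1 µg/kg barely exceeded the highest at 0.3 µg/kg. The member ranked 8 held 46.0, 21.3 and 42.7 CPM at 10 µg/kg against 14.0, 7.83 and 21.9 CPM at 3 µg/kg, which overlapped, and 5.53, 13.2 and 5.86 CPM at 1 µg/kg. The member ranked 34 had the lowest means of the 4 from 1 µg/kg on, with 12.4, 8.54 and 6.88 CPM at 10 µg/kg and 3.94, 3.67 and 4.30 CPM at 1 µg/kg.

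Several of the highest members at 10 µg/kg were modest at 3 µg/kg and spread between rats. The member ranked 3 held 43.9, 102 and 97.0 CPM at 10 µg/kg against 5.41, 6.97 and 29.96 CPM at 3 µg/kg. The member ranked 5 held 43.3, 33.9 and 94.7 CPM at 10 µg/kg against 6.45, 4.70 and 15.8 CPM at 3 µg/kg. For both, replicate 3 was the highest library at 3 µg/kg. The groups did not overlap, but the 10 µg/kg libraries had chosen and ranked both genes. The member ranked 6 had 1 high library at 10 µg/kg, with 98.1, 30.1 and 33.6 CPM, and was even at 3 µg/kg, with 14.1, 14.8 and 9.96 CPM. At 1 µg/kg it held 1.73, 1.37 and 1.17 CPM.

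The members ranked 1 and 2 followed different courses over the doses. ENSRNOG00000026679, ranked 1, held 0.0767, 0.148 and 0.337 CPM in vehicle and 0.0712 to 0.254 CPM in the 6 libraries at 0.01 and 0.03 µg/kg. It held 0.239, 0.697 and 2.40 CPM at 0.1 µg/kg, 10.4, 6.18 and 4.26 CPM at 0.3 µg/kg and 51.9, 107 and 80.3 CPM at 1 µg/kg. From 0.3 to 3 µg/kg each group lay wholly above the dose below it, while 0.1 µg/kg overlapped with 0.03 µg/kg and with vehicle. The libraries held 199, 204 and 136 CPM at 3 µg/kg and 207, 214 and 136 CPM at 10 µg/kg, so the groups at the highest doses overlapped. The step to 1 µg/kg from 0.1 µg/kg was large (log2 fold change 6.20, SE 0.51; edgeR quasi-likelihood test, Benjamini-Hochberg adjusted p = 4.53e-06). The step to 3 µg/kg from 1 µg/kg was not called (edgeR adjusted p = 0.288; log2 fold change 1.20, SE 0.37).

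ENSRNOG00000006119, ranked 2, was at or below 5 counts in every library from vehicle to 0.3 µg/kg and had no count in any library at 0.1 µg/kg. It held 0.692, 0.458 and 0.156 CPM at 1 µg/kg, 8.47, 9.64 and 2.02 CPM at 3 µg/kg and 128, 107 and 205 CPM at 10 µg/kg. The group at 10 µg/kg lay wholly above 3 µg/kg, but its libraries had chosen and ranked this gene. The gene lay wholly higher at 3 µg/kg than at 1 µg/kg, where it overlapped with 0.3 µg/kg. At 3 µg/kg it averaged 6.71 ± 4.10 CPM, against 0.435 ± 0.268 CPM at 1 µg/kg (SD, n = 3 each; log2 fold change 3.94, SE 0.73; edgeR adjusted p = 0.0371). ENSRNOG00000006119 passed the filter on low counts only through the 3 µg/kg libraries, so that this test draws on the group that let it in; without the filter the edgeR adjusted p was 0.0104. With the filter, the call was lost without 1 µg/kg replicate 2 (edgeR adjusted p = 0.168) or 3 (0.197) and without 3 µg/kg replicate 1 (0.0892) or 2 (0.132). Over all alternatives tried the adjusted p ran from 0.00023 to 0.197. The mean at 10 µg/kg was 21.8 times that at 3 µg/kg for this gene, against 1.03 times for the member ranked 1.

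**Figure D3:**
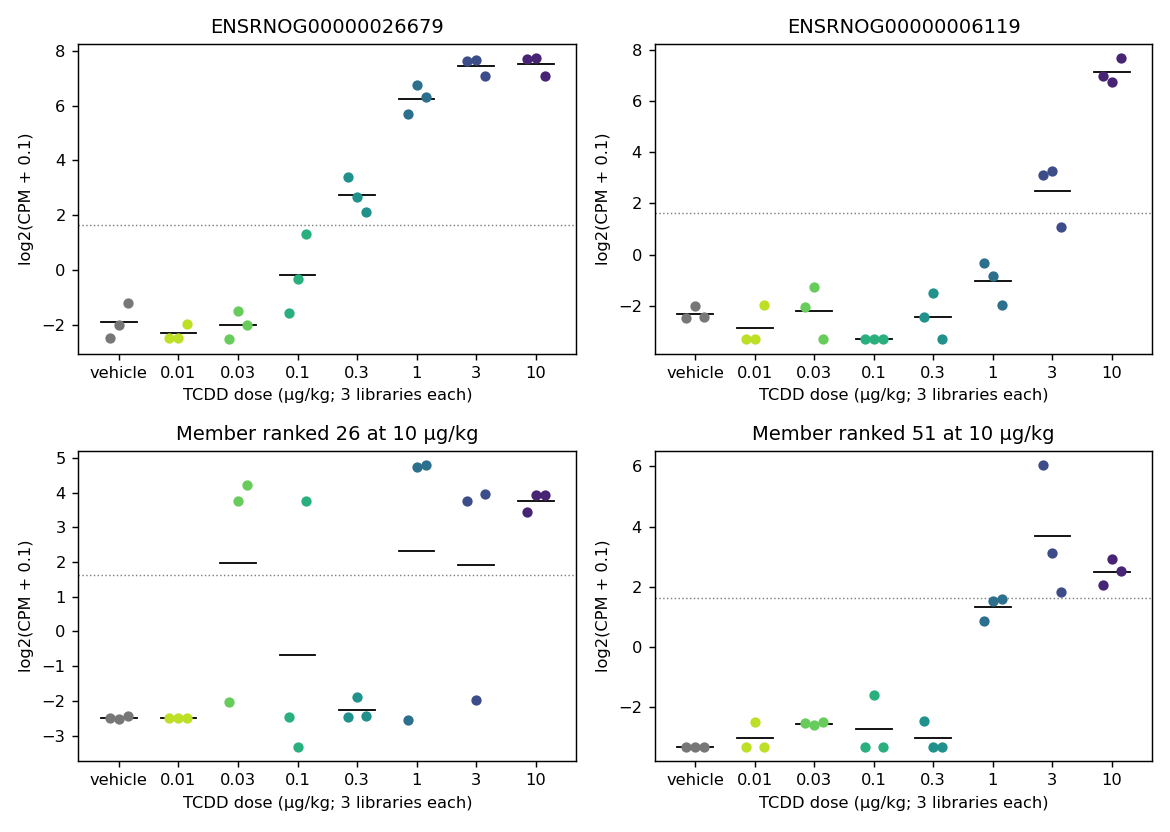
Level of 4 members in each library as log2(CPM + 0.1), by dose in µg/kg; points are libraries, solid lines the mean of the plotted values and the dotted line 3 CPM. The member ranked 1 levels off at 3 µg/kg and that ranked 2 does not; the member ranked 26 is either near 0 or above 10 CPM within a dose, and that ranked 51 has its highest mean at 3 µg/kg.

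The 18 libraries at 0.01 to 3 µg/kg played no part in choosing the members, and tests among them ask whether the members moved with dose below 10 µg/kg. On the rank of the dose, 46 of the 73 members had a rising slope and 0 a falling slope (edgeR, adjusted p below 0.05 over all genes tested), where 5.91% of the 12224 genes tested rose. Only 70 members passed the filter on low counts, and 10 of these passed through the 3 µg/kg libraries and so had to differ. Those 10 ranked 2, 9, 10, 15, 16, 21, 25, 36, 69 and 71. All 10 rose, as did 36 of the other 60. The 60 are not free of this effect. Some, such as those ranked 4, 6, 11 and 51, passed through the libraries at 1 and 3 µg/kg, and these also rose. Without the filter all 73 members were tested and 45 rose, against 3.52% of 17843 genes. In that fit the median slope was 0.39 log2 units per dose step over the members and 0.00046 over all genes. Among the 1016 other IDs with a vehicle mean below 1 CPM that passed the filter, 64 (6.30%) rose. Each of these IDs had missed 3 CPM in a library at 10 µg/kg, so their share is not compared with that of the members.

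The rising slopes ran from 0.21 to 2.96 log2 units per dose step. ENSRNOG00000026679 had a slope of 2.54 (SE 0.13; edgeR adjusted p = 4.35e-11) and ENSRNOG00000006119 one of 1.84 (SE 0.23; edgeR adjusted p = 2.15e-05). The smallest adjusted p among the members belonged to the member ranked 11, which held 2.49, 3.44 and 4.07 CPM at 1 µg/kg and 9.13, 11.0 and 9.55 CPM at 3 µg/kg (slope 2.07, SE 0.10; edgeR adjusted p = 2.13e-11). It was at or below 0.155 CPM in every library at the 3 lowest doses. The 10 members with the smallest p for the slope ranked 1, 4, 6, 11, 16, 19, 21, 29, 32 and 51, which spread over the order at 10 µg/kg. Those ranked 16 and 21, like ENSRNOG00000006119, are among the 10 let in by the 3 µg/kg libraries. All of these 10 had their onset at 10 µg/kg; of the 39 other tested members with that onset, 16 had a rising slope. No rise in any of the 5 tests was called for 23 tested members, which ranked 20 or lower and had a median mean of 5.21 CPM at 10 µg/kg.

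**Figure D4:**
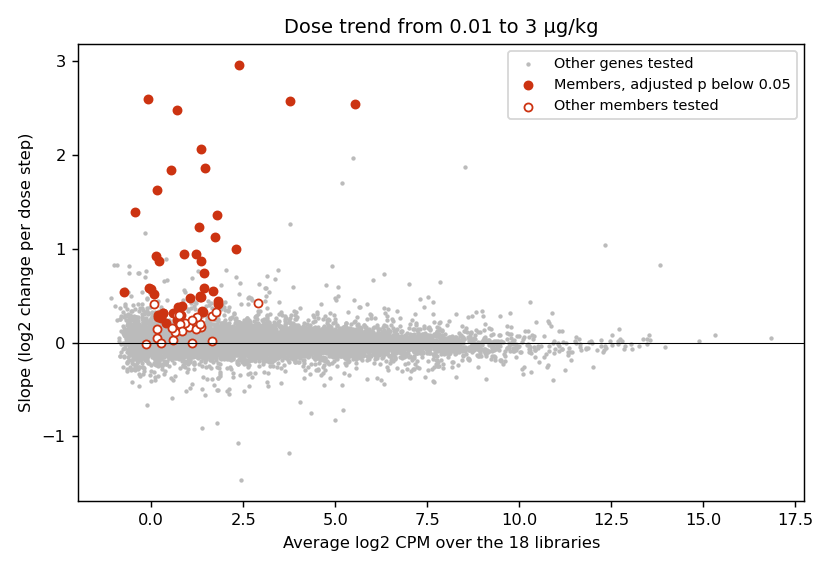
Slope of expression on the rank of the dose from 0.01 to 3 µg/kg (log2 change per dose step) against average log2 CPM over the 18 libraries, for the 12224 genes tested. Filled red points are the 46 members with a rising slope at an adjusted p below 0.05, open red points the other members tested and grey points other genes.

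Between single doses, the widest step, 3 against 0.01 µg/kg, was called for the most members. At 3 µg/kg against 0.01 µg/kg, 36 members rose and 0 fell, where 3.26% of all genes tested rose. Of the 36, 9 had passed the filter only through the 3 µg/kg libraries. Others, such as those ranked 4, 6, 11 and 51, had passed through the libraries at 1 and 3 µg/kg. Without the filter 38 rose, against 1.95% of all genes. At 3 against 1 µg/kg, 8 members rose, where 0.147% of all genes rose; these ranked 2, 4, 6, 9, 10, 11, 16 and 21. Of these, 5 (ranked 2, 9, 10, 16 and 21) were tested only because of their 3 µg/kg libraries, while the other 3 passed the filter without them. Without the filter 11 members rose, the 8 among them, against 0.135% of all genes. At 1 against 0.1 µg/kg, 7 members rose, where 0.327% of all genes rose. They ranked 1, 4, 6, 11, 12, 19 and 32. Those ranked 4, 6 and 11 passed the filter through libraries at 1 and 3 µg/kg, so this test draws on a group that let them in. Without the filter the same 7 rose, against 0.258% of all genes. The members ranked 4, 6 and 11 rose at both steps. Member ranked 4 held 47.1, 64.9 and 72.9 CPM at 3 µg/kg against 17.7, 14.4 and 16.7 CPM at 1 µg/kg (log2 fold change 1.93, SE 0.28; edgeR adjusted p = 0.0050). At 10 µg/kg it held 106, 62.4 and 66.1 CPM, which overlapped with 3 µg/kg.

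At 0.1 against 0.01 µg/kg no member was called by edgeR or by DESeq2, where 0.0491% of all genes rose; at an unadjusted p below 0.05, 16 members were higher and 1 lower, where 3.68% of all genes were higher and 1.91% lower. The count at 3 against 1 µg/kg was 3 without 1 µg/kg replicate 2 or 3, 5 without 3 µg/kg replicate 1 and 4 without 3 µg/kg replicate 2. The count at 1 against 0.1 µg/kg was 4 without 0.1 µg/kg replicate 1 or without 1 µg/kg replicate 2 or 3, and DESeq2 gave 13.

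Members differed widely in how far their level at 10 µg/kg lay above that at 3 µg/kg. All 3 libraries at 10 µg/kg lay above all 3 at 3 µg/kg for 54 of the 73 members and for 19.4% of all 16983 IDs with a count in these libraries; the rule used the 10 µg/kg libraries, so nothing is read from this. The mean at 10 µg/kg was 2.58 times that at 3 µg/kg in the median member. It was below 1 for 1 member, 1 to 2 times for 23 members, 2 to 4 times for 26, 4 to 10 times for 18 and over 10 times for 5.

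Those 5 members, ranked 2, 7, 9, 18 and 49, held under 1 CPM in every library below 3 µg/kg. Besides the member ranked 2, the member ranked 9 held 28.4, 35.2 and 45.8 CPM at 10 µg/kg against 2.87, 1.49 and 4.53 CPM at 3 µg/kg. The member ranked 18 held 27.3, 19.7 and 16.7 CPM at 10 µg/kg against 0.782, 0.392 and 0.243 CPM at 3 µg/kg. The member ranked 49 held 3.56, 7.47 and 6.88 CPM at 10 µg/kg against 0.391, 0.0783 and 0.162 CPM at 3 µg/kg. In all 3 genes the lowest library at 10 µg/kg lay above the highest at 3 µg/kg. Nothing is read from this, since they were picked by the ratio of these doses. The order of the members also differed between doses. Of the 10 members with the highest means at 10 µg/kg, 5 were among the 10 highest at 3 µg/kg and 3 among the 10 highest at 1 µg/kg.

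**Figure D5:**
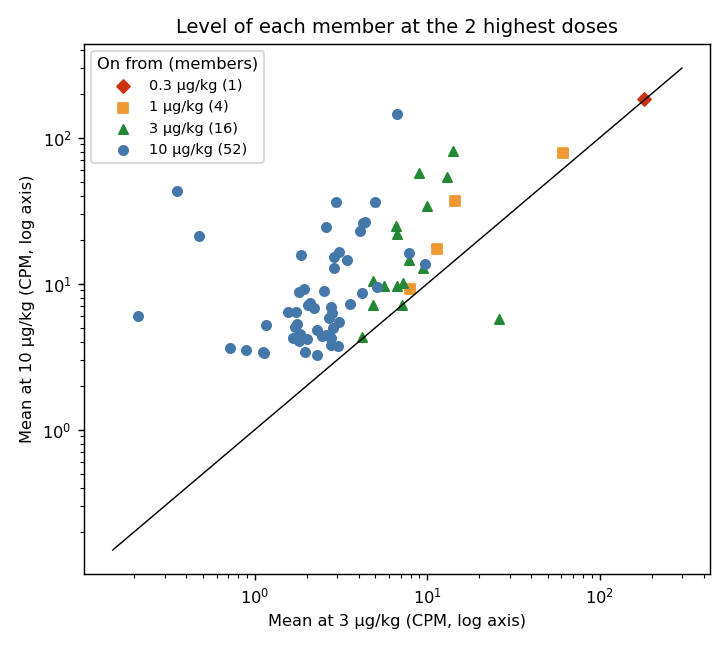
Mean at 10 µg/kg against mean at 3 µg/kg for each of the 73 members (CPM, log axes), marked by the dose from which every library held 3 CPM. The line marks equal means; 1 member lies below it, and 5 lie at more than 10 times their mean at 3 µg/kg.

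Rats given the same dose differed in the members. The coefficient of variation within a group had a median over members of 28.9% among the 10 µg/kg rats and 31.5% among those given 3 µg/kg. The rule kept no member with a library under 3 CPM at 10 µg/kg, so these values are not compared. The highest library at 10 µg/kg was more than 2 times the lowest for 28 members. The widest was the member ranked 7, with 12.6, 3.99 and 112 CPM at 10 µg/kg, 0.196, 0.627 and 0.243 CPM at 3 µg/kg and at most 0.156 CPM in any library below. Its mean at 10 µg/kg rests on replicate 3. Replicate 1 was the highest library at 10 µg/kg for 34 members, replicate 2 for 20 and replicate 3 for 19.

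The member ranked 26 was on or off in single rats at several doses. It held 10.7 to 27.6 CPM in 10 libraries and at most 0.169 CPM, under the floor, in the other 14. No rat given vehicle, 0.01 µg/kg or 0.3 µg/kg had the gene on. It was on in 2 of 3 rats given 0.03 µg/kg, 1 of 3 given 0.1 µg/kg, 2 of 3 given 1 µg/kg, 2 of 3 given 3 µg/kg and, by the rule, 3 of 3 given 10 µg/kg. No library lay between these ranges, and its trend missed the threshold (slope 0.43, SE 0.32; edgeR adjusted p = 0.444). The other 72 members summed to 228 ± 60.1 CPM at 1 µg/kg, 550 ± 33.9 CPM at 3 µg/kg and 1367 ± 82.0 CPM at 10 µg/kg.

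At 0.1 µg/kg, replicate 3 stood above its group for the members ranked 8, 13 and 26, the only members in which 1 library at or below 3 µg/kg reached 3 CPM while the others of its group stayed below 1 CPM. The member ranked 8 held 0.797, 0.697 and 3.64 CPM there and the member ranked 13 held 0.797, 0.697 and 3.56 CPM. Both had the same counts in replicates 1 and 2 at that dose, but at 10 µg/kg the member ranked 13 held 12.5, 23.7 and 41.7 CPM, in another order than the member ranked 8. Whether the pair share reads was not tested. Replicate 3 also had the highest sum over members at 0.1 µg/kg, 116 CPM against 80.9 and 90.3 CPM in replicates 1 and 2.

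For 70 members the highest mean was that at 10 µg/kg. The exceptions were the member ranked 26, highest at 1 µg/kg, the member ranked 67, highest at 0.1 µg/kg, and the member ranked 51, highest at 3 µg/kg. The member ranked 51 held 4.07, 7.40 and 5.66 CPM at 10 µg/kg against 65.6, 8.70 and 3.48 CPM at 3 µg/kg and 1.73, 2.75 and 2.89 CPM at 1 µg/kg. Its high mean at 3 µg/kg came from replicate 1, and the groups at 10 and 3 µg/kg overlapped.

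The mean did not climb evenly with dose in a part of the members. In 25 members the mean at 1 µg/kg was below that at 0.3 µg/kg, and in 22 it was below that at 0.1 µg/kg. Replicate 1 at 1 µg/kg was the lowest of its group in 46 of the 73 members; without it, 24 and 19 members had the lower mean at 1 µg/kg. No member fell at 1 against 0.1 µg/kg by edgeR, and 1 was lower at an unadjusted p below 0.05, where 4.45% of all genes were. The member ranked 67 held 4.44, 3.10 and 3.64 CPM at 10 µg/kg, but already 3.59, 3.10 and 4.65 CPM at 0.1 µg/kg and 1.24, 2.60 and 2.19 CPM at 1 µg/kg. It and the member ranked 40 were the members with at least 3 CPM in every library at 0.1 µg/kg. In 4 members the group mean never fell from a dose to the next.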

How the data were processed

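RNA sequencing of liver gave 1 table per library of raw whole-number counts per Ensembl gene ID. Per the submitters' processing notes, the authors used HTSeq 0.6.1, TopHat 1.4.1, DESeq, FastQC 0.11.2, SAMtools 0.1.2 and cutadapt 1.4.1. The order of these tools, the genome build, the annotation and the strand setting are not given in the sources used here. For that reason, reads of overlapping, antisense or near-identical genes are uncertain for a single ID. The deposited counts end in 5 summary rows that name no gene; these held 35.8% to 47.5% of a table's total and were left out.

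CPM was the count divided by the sum of gene rows, times 1000000. The 18 libraries at 0.01 to 3 µg/kg were fitted in R 4.3.3 with edgeR 4.0.16 (filterByExpr, TMM scaling, glmQLFit, glmQLFTest), as a mean per group or a slope on dose rank, and p-values were adjusted over all genes tested at a threshold of 0.05. The standard error was the log2 fold change divided by the square root of F. The pipeline was tested on simulated data. The genes to be named were the 12 members highest at 10 µg/kg, the 10 with the smallest trend p, the 5 highest at 3 and at 1 µg/kg, those high in a single library and those at the thresholds, with at most 2 IDs printed; those ranked 18, 34, 40 and 49 were singled out after their values were seen. Members and lists were chosen with earlier results of these data known. The gene lists by symbol could not be applied, since 0 of the IDs matched the RefSeq tables. Alternatives were RLE scaling, DESeq2 1.42.0, other low-count filters, the replicate number as a block, all 24 libraries, log10 of dose, other thresholds of the rule and leaving out each library. Counts limit precision: a level rests on few reads below about 1 CPM.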

Additional observations from a re-analysis of the deposited data

How the results depend on the processing

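The number of members depends on its thresholds: 34 at a vehicle mean below 0.5 CPM, 223 below 2 CPM, and 127 and 37 at a minimum of 2 and 5 CPM at 10 µg/kg. On TMM-scaled CPM it was 62, all among the 73, and 70 to 86 when a vehicle or 10 µg/kg library was left out. The TMM factors multiply the library sizes and were 1.09 to 1.11 at 10 µg/kg, 0.926 to 1.00 in vehicle and 0.903 to 1.02 at 3 µg/kg. Ratios of 10 µg/kg to 3 µg/kg or to vehicle are therefore smaller on that scale than the unscaled ones given above. The trend count was 39 to 50 over left-out libraries and 45 to 50 under the other settings tried. At 3 against 0.01 µg/kg it was 29 to 38 and 35 to 47. At 1 against 0.1 µg/kg it was 4 to 7 over left-out libraries and 13 with DESeq2. At 3 against 1 µg/kg it was 3 to 8 over left-out libraries and 8 to 11 under the other settings. At 0.1 against 0.01 µg/kg it stayed at 0. The 10 members called by DESeq2 at 3 against 1 µg/kg included only 5 of the 8 called by edgeR. The cause of the shifts in the test counts was not tested.

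Calls over all genes varied more. With DESeq2 they were 192 against 44 by edgeR at 1 against 0.1 µg/kg and 118 against 42 at 3 against 1 µg/kg. Over left-out libraries they were 19 to 121 and 10 to 101, 321 to 593 against 663 at 3 against 0.01 µg/kg, and 2 to 4 against 6 at 0.1 against 0.01 µg/kg. With DESeq2, ENSRNOG00000006119 passed at 1 against 0.1 µg/kg (DESeq2 adjusted p = 0.0327; edgeR 0.256).

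Replicate numbers pair no rats by the labels, and 21 of 45 same-numbered pairs had correlated deviations above 0.1, with 11 of 18 libraries closest to their own number. The correlation had a median of 0.093 over the 45 pairs and ran from -0.253 to 0.407. Whether the replicate numbers mark a batch was not tested. With the replicate block, 46 members rose over the trend, 40 at 3 against 0.01, 8 at 3 against 1 and 6 at 1 against 0.1 µg/kg, and 3 genes in all at 0.1 against 0.01 µg/kg. Depth limits the lowest levels: 14 members rested on 3 or fewer counts over the vehicle group.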
